A study of Mus musculus with 10 samples.

Results

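The genes described here are 10 that mark endothelium, the cell layer that lines blood vessels, or steer its growth: Pecam1, Cdh5, Emcn, Kdr, Flt1, Tek, Vwf, Esam, Cd34 and Vegfa. They were taken from a fixed list by name, with every probe set that the array annotation assigns to 1 of them and to no other gene. All 10 were measured, out of 18193 genes, by 15 of 45037 probe sets. RNA came from the gastrocnemius, a calf muscle, of 5 Skn-1 deficient and 5 wild-type male mice aged 12 to 16 weeks, and it was hybridised to Affymetrix mouse arrays, 1 array per sample. Skn-1 (Pou2f3) is a POU-domain transcription factor required for taste-cell and tuft-cell types. The labels give a mixed 129 x C57BL/6J background for every sample, and the mutant line had over 10 generations of backcrossing to C57BL/6J. Both genotypes ate chow and were fasted for 18 h. The labels call the samples of each group biological replicates and do not say which stretch of Pou2f3 was removed.

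Endothelial cells are held together by adhesion proteins at their borders (Cdh5, Esam, Pecam1) and carry a surface coat that includes the sialomucins endomucin (Emcn) and Cd34. They survive and sprout under vascular endothelial growth factor A (Vegfa), which binds the receptors encoded by Kdr, the main signalling receptor, and Flt1, which also acts as a decoy. Tek encodes the receptor for angiopoietins, and Vwf the clotting protein that endothelium stores and releases. Vegfa differs from the other genes here because muscle fibres themselves make it. In mice its transcription in muscle is known to be raised by hypoxia-inducible factors and by the coactivator Ppargc1a, which exercise induces. Skeletal muscle is densely supplied with capillaries. In a whole-muscle extract, fewer endothelial cells cannot be told apart from less RNA per cell.

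Proximal promoters were read for the members that the RefSeq table of the GRCm38.p6 build holds, which were Emcn, Kdr, Flt1, Tek, Cd34 and Vegfa. The 250 bases before the start of 4 of them are shown because the results turn on these genes. Emcn had groups that did not overlap, Flt1 had probe sets that could be set against each other, Kdr varied apart from the rest and Vegfa varied against the rest. Capitals mark GGAAG or its reverse complement CTTCC, a core found in the sites of ETS factors, a family that includes regulators of endothelial genes. Sequences run 5′ to 3′ on the gene's strand.
Emcn, chr3:137340828-137341077, plus strand: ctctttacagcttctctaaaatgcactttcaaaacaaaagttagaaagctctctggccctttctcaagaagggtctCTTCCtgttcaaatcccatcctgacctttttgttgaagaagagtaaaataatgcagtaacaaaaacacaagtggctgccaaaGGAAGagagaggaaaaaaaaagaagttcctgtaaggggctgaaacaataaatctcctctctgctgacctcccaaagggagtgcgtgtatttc
Flt1, chr5:147726012-147726261, minus strand: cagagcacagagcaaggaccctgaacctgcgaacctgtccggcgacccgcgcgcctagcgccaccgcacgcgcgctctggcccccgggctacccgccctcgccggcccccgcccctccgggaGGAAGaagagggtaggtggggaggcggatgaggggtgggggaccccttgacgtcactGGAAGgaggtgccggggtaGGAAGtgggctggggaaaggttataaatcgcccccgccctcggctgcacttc
Kdr, chr5:75978456-75978705, minus strand: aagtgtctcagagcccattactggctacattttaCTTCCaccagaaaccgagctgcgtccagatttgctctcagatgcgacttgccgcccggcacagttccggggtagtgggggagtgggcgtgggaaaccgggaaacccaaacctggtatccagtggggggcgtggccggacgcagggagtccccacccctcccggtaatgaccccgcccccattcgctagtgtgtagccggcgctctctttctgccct
Vegfa, chr17:46032378-46032627, minus strand: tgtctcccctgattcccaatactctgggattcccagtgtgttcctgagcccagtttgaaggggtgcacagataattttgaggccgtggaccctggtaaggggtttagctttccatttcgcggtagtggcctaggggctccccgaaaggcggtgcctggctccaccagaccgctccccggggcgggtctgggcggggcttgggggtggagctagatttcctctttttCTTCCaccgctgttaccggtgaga
The core occurred 3 times before Flt1, 2 times before Emcn, once each before Kdr, Cd34 and Vegfa, and not in this window of Tek. Of 32851 promoter windows of the same length in the table, 64.1% held it on either strand, with a mean of 1.09 matches, so its presence in 5 of 6 members does not set them apart. For the hypoxia response core only ACGTG, or CACGT on the other strand, was counted. These letters were in none of the 6 windows and in 16.6% of all. The form GCGTG, or CACGC on the other strand, was not counted, and it stands in the printed Emcn, Flt1 and Kdr windows. The 8-base cAMP response sequence TGACGTCA, which reads the same on both strands, stood in the Flt1 window from 81 to 74 bases before the start, overlapped no ETS-type core, and was found in 1.55% of all windows. These matches are letters and not shown to be bound.

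The deposited values are read as log2 from their range (4.93 to 13.96), since the sources used here do not state the log base, and the array medians lay between 6.23 and 6.24. Most probe sets hardly varied: 86.2% had a standard deviation (SD) over the 10 arrays of 0.01 or less and are called low-variation here, and the other 6209 are called ordinary. Differences of the low-variation kind have no size that can be read as a fold change. The 1 probe set of the targeted gene Pou2f3 was of that kind (6.47 in all 10 arrays, with overlapping groups) and does not check the labels. The fibre gene Atp2a1, the calcium pump of fast fibres, stood at 12.89 ± 0.0886 in Skn-1 deficient and 12.82 ± 0.0784 in wild-type muscle (SD, n = 5 each). Some arrays carried genes of other tissues, meaning that the median over a marker list lay more than 1 log2 unit above the median of all arrays. Lymphocyte genes did so in Skn-1 deficient replicate 5 and wild-type replicate 3 (1.58 and 1.81), hair and epidermis genes in wild-type replicate 1 (1.08), and adipocyte genes in wild-type replicate 3 (1.26). With the looser rule of at least 3 list genes more than 1 above the median, Skn-1 deficient replicates 1 and 4 also stood apart for hair and epidermis genes. Results are therefore also given without the first 3 or all 5 of these arrays. No batch or scan date is given in the sources used here.

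Of the 15 member probe sets, 10 were ordinary and covered 8 genes. The other 5 were the only probe sets of Pecam1 (1421287_a_at, 7.90 to 7.91 in every array) and Tek (1418788_at, 8.31), and 1 further probe set each of Cdh5, Flt1 and Vegfa. Pecam1 and Tek are thus measured without a readable difference. Their highest arrays were wild-type replicates 2 and 5 for both genes, on a total range of 0.00308 and 0.00221 log2 units. Other low-variation member probe sets had another order. Flt1 1454037_a_at was lowest in wild-type replicate 5, and Cdh5 1422047_at was highest in wild-type replicate 1. No array order is therefore read from probe sets of this kind.

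No endothelial gene passed the test between genotypes. With limma and Benjamini-Hochberg adjustment over all 45037 probe sets, 0 of 15 member probe sets were called at 0.05, where 0.191% of all probe sets were. Taking each gene by its brightest probe set, 0 of 10 members were called among 18193 genes, where 0.0275% of genes were. At an unadjusted limma p under 0.05 there was 1 of the 10 ordinary probe sets, Emcn 1425582_a_at, against 9.92% of all 6209. The low-variation Cdh5 1422047_at was also under 0.05. No share over low-variation probe sets is given here to set it against. The 95% intervals of the 10 ordinary probe sets all lay between 0.726 and 1.52 times the wild-type level, so a 2-fold difference in the deposited values lay outside each of them. The summary method behind those values is not stated, so the intervals do not bound the difference in RNA. By the brightest ordinary probe set of each gene, 2 members were higher and 6 lower in Skn-1 deficient muscle, with a median log2 difference of -0.07. Over all 3846 genes with such a probe set, 1826 were higher, 2020 lower and the median was -0.0047.

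**Figure D1:**
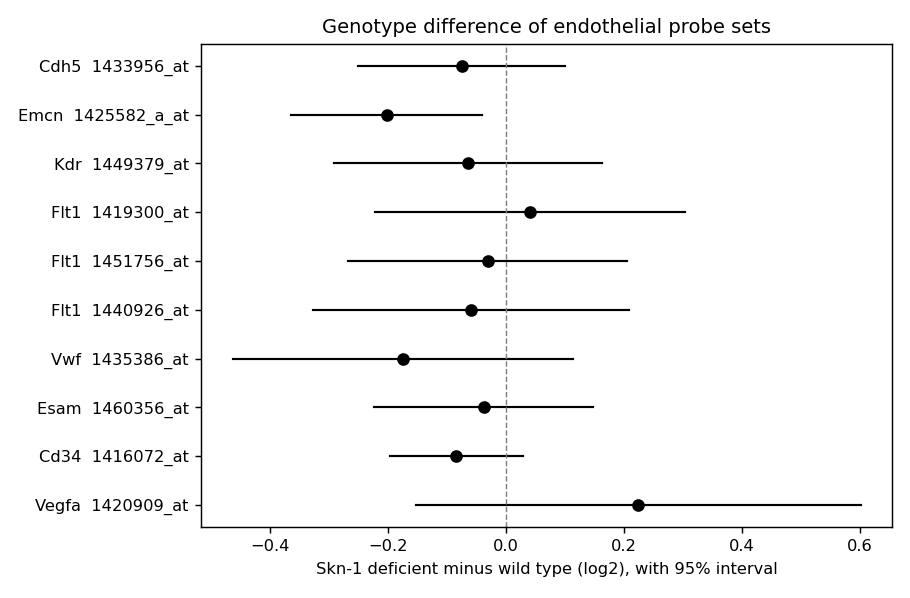
Log2 difference, Skn-1 deficient minus wild type, of the 10 ordinary endothelial probe sets on the horizontal axis, with 1 row per probe set. Points are limma estimates from 5 arrays per genotype and lines their 95% intervals. The Emcn interval (-0.36 to -0.04) lies below 0 before any adjustment, and the other 9 intervals include 0.

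Emcn, the endothelial sialomucin that marks capillaries and veins, was the one ordinary member whose groups did not overlap. Its deposited log2 values were 7.57, 7.63, 7.60, 7.41 and 7.64 in Skn-1 deficient muscle, against 7.65, 7.88, 7.65, 7.73 and 7.94 in wild-type muscle. All 5 Skn-1 deficient arrays lay below all 5 wild-type arrays, but the gap between Skn-1 deficient replicate 5 and wild-type replicate 3 was 0.00793 log2 units. The means were 7.57 ± 0.0928 in Skn-1 deficient and 7.77 ± 0.133 in wild-type muscle (SD, n = 5 each), a log2 difference of -0.20 ± 0.07 SE, or 0.869 times the wild-type level. The difference had an unadjusted p of 0.0204 and a limma adjusted p of 0.605, so it did not pass. An exact two-sided permutation test of this probe set alone gave p = 0.00794, the smallest that 5 against 5 allows, without adjustment for the other probe sets. Of the ordinary probe sets on the whole array, 3.96% had groups that did not overlap and 0.596% had Skn-1 deficient arrays below wild type. A count of 1 among 10 members was not read as an excess over those shares. Without the 3 arrays that stood apart the log2 difference was -0.30 (limma adjusted p = 0.516), and without all 5 it was -0.24 (limma adjusted p = 0.837). The 3 arrays were the highest Skn-1 deficient and the lowest wild-type arrays for Emcn. Leaving them out therefore had to widen the difference and is no test of it. The fit without 5 kept only Skn-1 deficient replicates 2 and 3 and wild-type replicates 2, 4 and 5. The genes of fibro-adipogenic cells, the connective tissue progenitors of muscle, lay on the other side: 8 of 8 with an ordinary probe set were higher in Skn-1 deficient muscle and none passed. Over all genes with such a probe set 47.5% were higher. The mean deviation of the fibro-adipogenic genes from the median of all arrays ran from -0.07 to 0.20 log2 units in Skn-1 deficient arrays and from -0.27 to 0.15 in wild-type arrays. They were not alone on that side, since 6 of 7 myofibre genes were higher too, against 2 of 7 pericyte and smooth muscle genes. The part of cell composition in the Emcn difference was not tested.

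**Figure D2:**
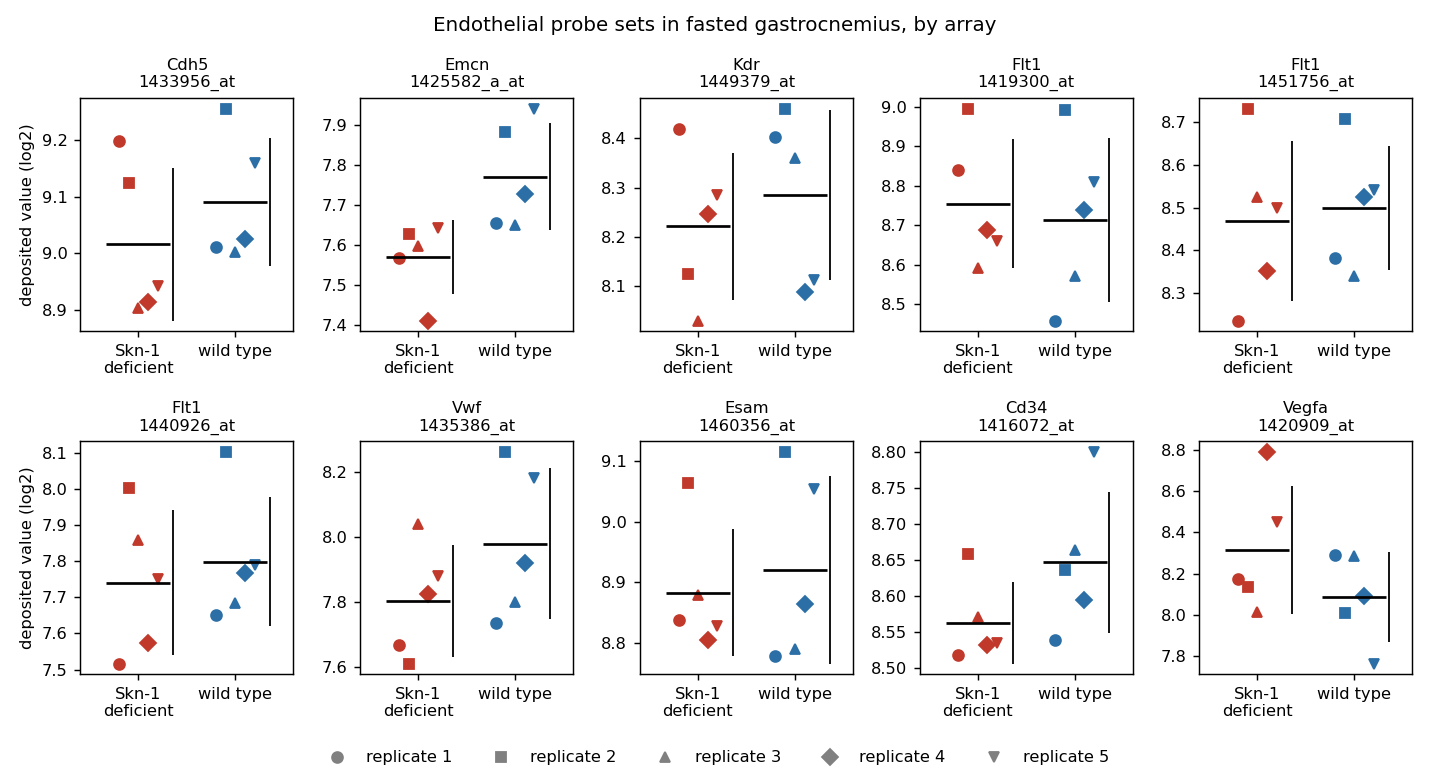
Deposited log2 value on the vertical axis of each panel for the 10 ordinary endothelial probe sets, with the 5 Skn-1 deficient arrays (red) left of the 5 wild-type arrays (blue) and a symbol for each replicate number. Horizontal lines are group means and vertical lines 1 SD to each side. Emcn is the panel where the groups do not overlap, and wild-type replicate 2 is the highest point for Cdh5, Kdr, Vwf, Esam and Flt1 1440926_at.

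The junction genes showed no difference beyond the spread between arrays. Cdh5, VE-cadherin, the adhesion protein that defines endothelial junctions, had values of 9.20, 9.12, 8.90, 8.91 and 8.94 in Skn-1 deficient muscle, against 9.01, 9.26, 9.001, 9.02 and 9.16 in wild-type muscle (probe set 1433956_at). The groups overlapped, with Skn-1 deficient replicates 3, 4 and 5 below every wild-type array. Means were 9.02 ± 0.136 in Skn-1 deficient and 9.09 ± 0.113 in wild-type muscle (SD, n = 5 each), a log2 difference of -0.07 with a 95% interval of -0.25 to 0.10. The second Cdh5 probe set, 1422047_at, read 5.85 in every array and below the array medians. Its Skn-1 deficient arrays all lay below the wild-type arrays, within a total range of 0.000422 log2 units (unadjusted p = 0.00131, limma adjusted p = 0.195), and this has no readable size. Esam, an immunoglobulin-type adhesion molecule of the same junctions, had 8.84, 9.06, 8.88, 8.81 and 8.83 in Skn-1 deficient muscle, against 8.78, 9.12, 8.79, 8.86 and 9.05 in wild-type muscle. Replicate 2 was the highest array of both genotypes. The log2 difference was -0.04 (95% interval -0.22 to 0.15) and turned to 0.01 without wild-type replicate 2. Esam lies on chromosome 9, 212 places from Pou2f3 in gene order, and no other member is on that chromosome.

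The VEGF receptors also did not separate the genotypes. Kdr, VEGFR2, had values of 8.42, 8.12, 8.03, 8.25 and 8.29 in Skn-1 deficient muscle, against 8.40, 8.46, 8.36, 8.09 and 8.11 in wild-type muscle. The wild-type arrays fell into a higher 3 and a lower 2, and the Skn-1 deficient arrays spread over the same span. The log2 difference was -0.06 (95% interval -0.29 to 0.16, limma adjusted p = 0.983). Flt1, VEGFR1, had 3 ordinary probe sets. By the brightest, 1419300_at, its values were 8.84, 8.995, 8.59, 8.69 and 8.66 in Skn-1 deficient muscle, against 8.46, 8.99, 8.57, 8.74 and 8.81 in wild-type muscle. The second replicate was highest in both genotypes and the groups covered almost the same range. By 1451756_at they were 8.24, 8.73, 8.52, 8.35 and 8.50 in Skn-1 deficient muscle, against 8.38, 8.71, 8.34, 8.53 and 8.54 in wild-type muscle. By 1440926_at they were 7.52, 8.002, 7.86, 7.57 and 7.75 in Skn-1 deficient muscle, against 7.65, 8.10, 7.68, 7.77 and 7.79 in wild-type muscle. The log2 differences were 0.04, -0.03 and -0.06 for the 3 probe sets in that order, and their 95% intervals together ran from -0.33 to 0.30. The signs disagreed and each turned under at least 2 alternatives, so no direction can be given for Flt1.

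The Flt1 probe sets did not report the same thing in every array. Over the 10 arrays, 1451756_at and 1440926_at had a Pearson r of 0.958 (permutation p = 3e-05, adjusted over 3 pairs 9e-05) and a Spearman rho of 0.915 (permutation p = 0.00035, adjusted 0.00105), and without the 2 farthest arrays r was 0.940. The brightest probe set had r = 0.596 with 1451756_at and 0.572 with 1440926_at (both permutation p adjusted to 0.085; rho 0.552 and 0.430, adjusted p 0.157 and 0.220). Without the second replicate of each genotype these values were -0.02 and -0.17, so they rested on those 2 arrays. Flt1 is known to give a full-length receptor RNA and shorter soluble forms. The annotation used here does not say which probe set reads which form.

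Vwf, von Willebrand factor, had values of 7.67, 7.61, 8.04, 7.83 and 7.88 in Skn-1 deficient muscle, against 7.74, 8.26, 7.80, 7.92 and 8.18 in wild-type muscle. Wild-type replicates 2 and 5 were the highest arrays, and the rest of the wild-type arrays lay inside the Skn-1 deficient range. Means were 7.81 ± 0.172 in Skn-1 deficient and 7.98 ± 0.232 in wild-type muscle (SD, n = 5 each), with a log2 difference of -0.17 ± 0.13 SE and a limma adjusted p of 0.931. Cd34, a sialomucin of capillary endothelium that muscle stem cells and connective tissue progenitors also carry, had 8.52, 8.66, 8.57, 8.53 and 8.53 in Skn-1 deficient muscle, against 8.54, 8.64, 8.66, 8.59 and 8.80 in wild-type muscle. It varied least of the ordinary members, by 0.281 log2 units from the lowest to the highest array. Its log2 difference was -0.08 (95% interval -0.20 to 0.03, limma adjusted p = 0.886).

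Vegfa, the ligand, varied most, with 2.04 times as much signal in the highest as in the lowest array on the log2 reading. Its values were 8.18, 8.13, 8.01, 8.79 and 8.45 in Skn-1 deficient muscle, against 8.29, 8.01, 8.28, 8.09 and 7.76 in wild-type muscle (probe set 1420909_at). Skn-1 deficient replicates 4 and 5 were above every wild-type array, wild-type replicate 5 was below every other array, and the remaining 7 arrays were mixed. Means were 8.31 ± 0.310 in Skn-1 deficient and 8.09 ± 0.218 in wild-type muscle (SD, n = 5 each). The log2 difference of 0.23 ± 0.17 SE did not pass (95% interval -0.15 to 0.60, limma adjusted p = 0.933). It was 0.11 without Skn-1 deficient replicate 4 and 0.14 without wild-type replicate 5. Ppargc1a, the coactivator named above, also had its highest values in Skn-1 deficient replicates 4 and 5. It stood at 7.61, 8.22, 8.53, 9.78 and 8.82 in Skn-1 deficient muscle, against 7.56, 7.53, 7.84, 7.75 and 7.32 in wild-type muscle (probe set 1460336_at, log2 difference 0.99 ± 0.36 SE, limma adjusted p = 0.633). Ppargc1a has other probe sets on the array, which are not given here and were not set against Vegfa. The pair of Vegfa and Ppargc1a was looked at after the values were seen. Over the 10 arrays Vegfa and Ppargc1a had r = 0.791 (permutation p = 0.00831) and rho = 0.636 (permutation p = 0.0544), 1 pair with no adjustment. Over the other 8 arrays, without Skn-1 deficient replicates 4 and 5, r was 0.181, so the value over all 10 depended on those 2 arrays. For deviations from the genotype means r was 0.760. Within single genotypes, where 5 arrays are too few for a correlation to be tested, it was 0.820 in Skn-1 deficient and 0.774 in wild-type muscle.

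**Figure D3:**
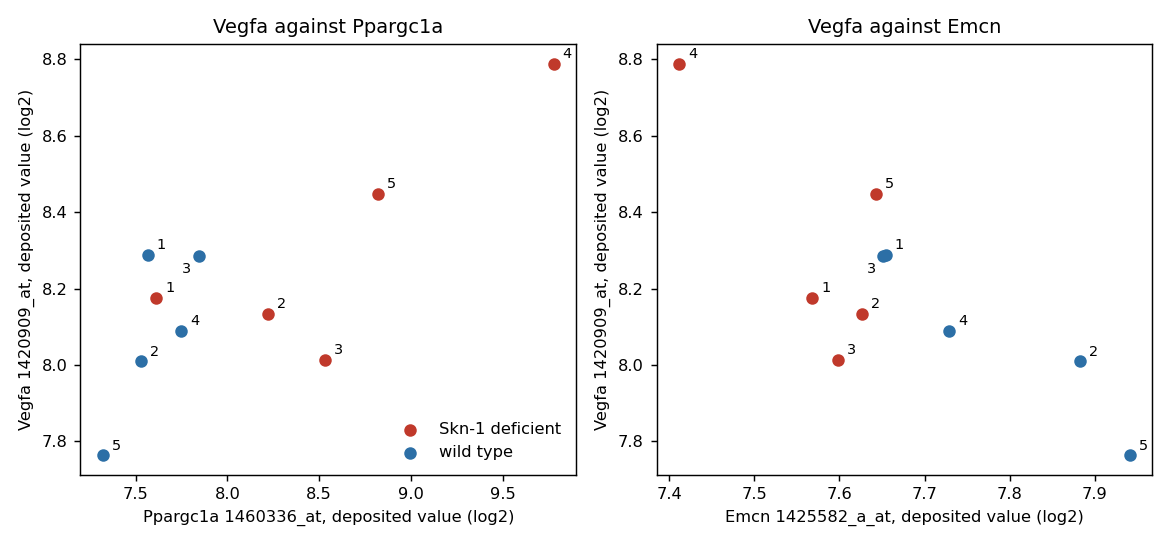
Deposited log2 value of Vegfa (vertical axes) against Ppargc1a (left) and Emcn (right) in the 10 arrays, Skn-1 deficient in red and wild type in blue, with replicate numbers beside the points. In the left panel Skn-1 deficient replicates 4 and 5 lie far to the right and high, and r is 0.181 without them; in the right panel the array with the highest Vegfa has the lowest Emcn and the array with the lowest Vegfa the highest Emcn (r = -0.81 over all 10).

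Co-variation among the members was computed for the 8 genes with an ordinary probe set, each by its brightest one, as Pearson r over the 10 arrays for 28 pairs. After adjustment over these pairs, 0 passed 0.05 by Pearson or by Spearman permutation tests, and 10 had an unadjusted Pearson p under 0.05. In 17 pairs r was positive. The strongest positive pair was Flt1 with Esam (r = 0.832, permutation p = 0.00264, adjusted 0.0739; rho = 0.806, adjusted 0.102). It was 0.58 without the second replicate of each genotype, and 0.868 for deviations from the genotype means. Cdh5 had r = 0.760 with Flt1 and 0.703 with Esam (permutation p adjusted to 0.114 for both; rho 0.721 and 0.527, adjusted p 0.219 and 0.348). Without Skn-1 deficient replicate 1 and wild-type replicate 2 these were 0.624 and 0.782. By the brightest Flt1 probe set, the 3 genes thus tended to be high and low in the same arrays. Wild-type replicate 2 was highest for Cdh5 and Esam and second for Flt1. The other ordinary Flt1 probe sets, 1451756_at and 1440926_at, also had it first or second. Their lowest array, though, was Skn-1 deficient replicate 1, which was second for Cdh5. No r of those probe sets with Cdh5 or Esam is given here.

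A second set of pairs centred on Emcn. Its r was 0.740 with Cd34, 0.702 with Vwf and 0.675 with Esam (permutation p adjusted to 0.114 for each; rho 0.685, 0.552 and 0.297, adjusted p 0.240, 0.348 and 0.656). Without wild-type replicates 2 and 5, the 2 highest Emcn arrays, the values were 0.411, 0.0964 and 0.136, so the last 2 rested on those arrays. Esam and Cd34 had r = 0.660 (permutation p adjusted to 0.114; rho 0.430, adjusted p 0.409), and 0.787 without the second replicate of each genotype. For Kdr no pair had an unadjusted p under 0.05, and with the other endothelial genes its r ran from -0.31 with Cd34 to 0.379 with Cdh5, with permutation p from 0.270 to 0.979. Without Skn-1 deficient replicate 3 and wild-type replicate 2, its r was negative with each of them, from -0.73 with Esam to -0.13 with Emcn. It was -0.57 with Cd34 and -0.56 with Flt1. The values near 0 thus rested on those arrays, and the negative ones were not tested.

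Vegfa ran against the endothelial genes in most pairs, with a negative r with 6 of the other 7 and 0.287 with Kdr. With Emcn r was -0.81 (permutation p = 0.00645, adjusted 0.0903) and rho -0.59 (adjusted p 0.329). The r was -0.70 without wild-type replicates 2 and 5, and -0.79 for deviations from the genotype means, so it did not rest on the genotype difference. With Cd34 it was -0.67 (permutation p adjusted to 0.119; rho -0.62, adjusted p 0.329), and with Esam -0.64 (adjusted 0.119; rho -0.81, adjusted p 0.102). Without the 2 farthest arrays these were -0.57 and -0.75. Over 13 alternatives the r of Emcn with Vegfa stayed between -0.88 and -0.68 and that of Flt1 with Esam between 0.758 and 0.903. Leaving out Skn-1 deficient replicate 1, 2 or 3 took 1, 1 and 2 pairs past the adjusted threshold. Without replicate 1 it was Flt1 with Esam, and without replicate 3 Flt1 with Esam and Emcn with Vegfa. Without replicate 2 it was another pair, Vwf with Esam (r = 0.912, permutation p adjusted to 0.0213). That pair had r = 0.511 over all 10 arrays (adjusted 0.282) and -0.33 without wild-type replicates 2 and 5, so its call depended on the arrays kept.

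**Figure D4:**
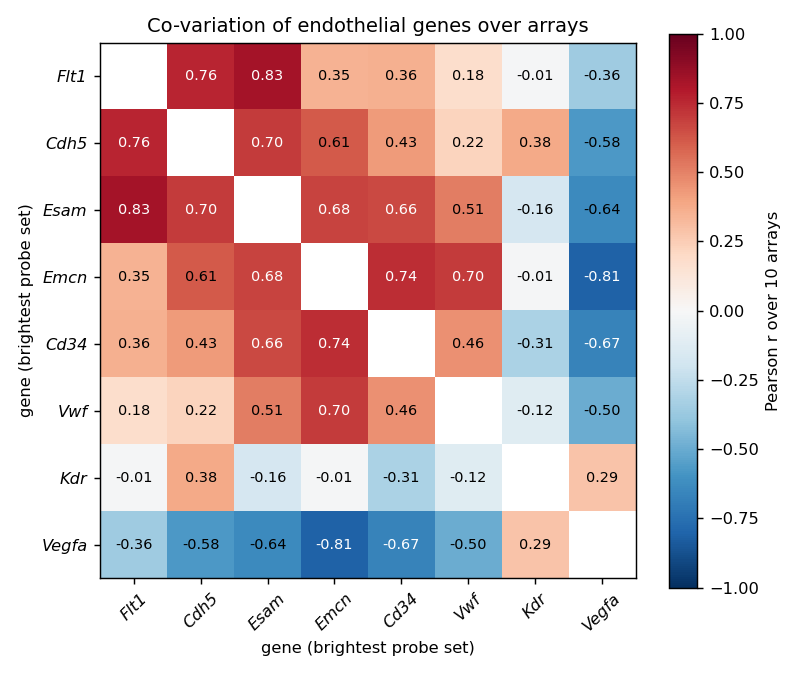
Pearson r over 10 arrays for each pair of the 8 endothelial genes with an ordinary probe set, with genes on both axes and colour from -1 (blue) to 1 (red). Flt1 (by its brightest probe set), Cdh5 and Esam form a block of r from 0.703 to 0.832, and Emcn joins Cd34, Vwf and Esam. Vegfa is negative with all but Kdr. Kdr is near 0 with most genes over all 10 arrays, but not without Skn-1 deficient replicate 3 and wild-type replicate 2. None of the 28 pairs passes after adjustment.

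To place the arrays, each of the 8 probe sets, that of Vegfa included, was scaled to mean 0 and SD 1 and averaged within an array. This mean of the 8 members was -0.0593, 0.161, -0.559, -0.367 and -0.231 in Skn-1 deficient muscle, against -0.399, 1.11, -0.14, -0.193 and 0.673 in wild-type muscle. Wild-type replicates 2 and 5 stood above all others and the remaining arrays were mixed. The non-member genes whose values followed this mean most closely, of 3402 compared, were Col4a2 (r = 0.929), Pde2a (0.922), Atf4 (0.916), Col4a1 (0.913), Lamb1 (0.911) and Fryl (0.909). Over all 3402 genes the 5th and 95th percentiles of r were -0.57 and 0.704. Col4a1 and Col4a2 encode the 2 common chains of type IV collagen and Lamb1 a laminin chain, all of basement membrane, Pde2a is a phosphodiesterase and Atf4 a stress-response transcription factor. Without wild-type replicates 2 and 5, r over 8 arrays was 0.881 for Col4a2 and 0.890 for Col4a1, and between 0.658 and 0.792 for the other 4. These r values are descriptions, with no test, over 10 arrays that all genes share. Because Vegfa ran against most other members, the mean was also taken over the other 7, a choice made after seeing the data. It was -0.0555, 0.217, -0.544, -0.721 and -0.391 in Skn-1 deficient muscle, against -0.502, 1.37, -0.203, -0.165 and 0.993 in wild-type muscle. Wild-type replicates 2 and 5 again stood above all others, and Skn-1 deficient replicate 4 was now the lowest array. The 6 genes named had r between 0.906 and 0.943 with this mean, and 4 of them were among its 6 closest.

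Other endothelial genes, from a list of 30 of which 29 were measured, were set against the same mean of 8 members. Of 16 with an ordinary brightest probe set, 14 had a positive r with the member mean, with a median of 0.490 against -0.0206 over all genes, from Mmrn2, an endothelial matrix protein (0.840), to Aplnr, the apelin receptor (-0.22). The pericyte and smooth muscle genes, which mark the cells that wrap vessels, had a median of 0.590 with 6 of 6 positive, and Tagln, a smooth muscle actin-binding protein, had the highest (0.781). A high median was not particular to vessel genes: hypoxia target genes had 0.494 with 5 of 7 positive, among them Bnip3, a mitophagy receptor (0.837), and the VEGF and angiopoietin pathway had 0.418 with 5 of 7 positive. The genes upstream of Vegfa lay on the other side, with a median of -0.36 and 2 of 7 positive, from Egln3 (0.747) to Ppargc1a (-0.51). Myofibre genes had a median of 0.0226, macrophage genes 0.003, adipocyte genes 0.122 and fibro-adipogenic genes -0.0469. Lymphocyte genes had -0.17 and hair and epidermis genes -0.30, with 0 of 9 and 0 of 15 positive, and the 5 arrays that carried those genes had means of the 8 members between -0.399 and -0.0593. With the mean that left out Vegfa, the medians were 0.482 for other endothelial, 0.624 for pericyte and smooth muscle and 0.556 for hypoxia target genes, against -0.038 over all genes. For the genes upstream of Vegfa the median was then -0.44.

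Between genotypes, 1 of the 55 probe sets of the other endothelial genes was called, where 0.191% of all probe sets were, and it was higher in Skn-1 deficient muscle. Counted by gene, 0 of 29 were called, because it is not the brightest Jam2 probe set. Jam2, a junctional adhesion molecule, had 7.32, 7.31, 7.33, 7.50 and 7.64 in Skn-1 deficient muscle, against 6.31, 6.14, 6.06, 6.18 and 5.97 in wild-type muscle by probe set 1419288_at. Its log2 difference was 1.29 ± 0.09 SE (limma adjusted p = 0.0019). Of the wild-type values 4 lay below the array medians, where signal over background is not established, so the size in RNA is uncertain. The other 4 Jam2 probe sets were of low variation. The call was lost without the 3 arrays that stood apart (log2 difference 1.27, limma adjusted p = 0.0508) and without all 5 (1.22, adjusted p = 0.710). Over 17 of these genes with an ordinary probe set, 5 were higher and 12 lower, with a median log2 difference of -0.03. Named after their values were seen, Fli1, an ETS factor of endothelium, had a log2 difference of -0.30 ± 0.09 SE (limma adjusted p = 0.517) and S1pr1, the sphingosine phosphate receptor, 0.35 ± 0.12 SE (limma adjusted p = 0.548).

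The remaining genes of the VEGF and angiopoietin pathway were not called in 43 probe sets of 20 genes. Vegfb, the relative of Vegfa that binds Flt1 and is abundant in muscle, came nearest, with 8.80, 8.73, 8.77, 8.78 and 8.81 in Skn-1 deficient muscle, against 8.77, 8.47, 8.47, 8.53 and 8.26 in wild-type muscle. Wild-type replicate 1 lay inside the narrow Skn-1 deficient range and the other 4 wild-type arrays below it. The log2 difference was 0.28 ± 0.08 SE (limma adjusted p = 0.449). Angpt1, the Tek ligand, differed by 0.18 ± 0.10 SE (limma adjusted p = 0.848), and its r with the member mean was -0.81. Among 13 genes upstream of Vegfa, 1 of 38 probe sets passed, the low-variation 1448183_a_at of Hif1a, with no readable size (limma adjusted p = 0.0458). Of 24 probe sets of hypoxia target genes none passed, with Ndrg1 1423413_at at 0.42 ± 0.10 SE (limma adjusted p = 0.308) and Slc2a1, a glucose transporter, at -0.11 ± 0.12 SE (limma adjusted p = 0.964). The Ndrg1 probe set had all Skn-1 deficient above all wild-type arrays, where 3.96% of ordinary probe sets had groups that did not overlap. It was the Ndrg1 probe set with the smallest p and not the brightest. The brightest ordinary Ndrg1 probe set was not under 0.05 by unadjusted limma p. None of 23 pericyte and smooth muscle probe sets passed, with Tagln at -0.17 ± 0.08 SE (limma adjusted p = 0.765) and Abcc9 at 0.16 ± 0.08 SE (limma adjusted p = 0.812). Arterial, venous and lymphatic endothelial genes had few ordinary probe sets, and none of theirs passed: the artery gene Efnb2 differed by 0.0079, the vein gene Nr2f2 by 0.09 and the lymphatic gene Lyve1 by 0.19 on the log2 scale. At an unadjusted limma p under 0.05, counting each gene by its brightest ordinary probe set, 8.53% of all 3846 genes were counted. There were 3 of 17 among the other endothelial genes, 1 gene each in the pathway, upstream and fibro-adipogenic lists and 0 in the hypoxia, pericyte and smooth muscle, arterial, venous and lymphatic lists.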

How the data were processed

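Gene expression in 10 gastrocnemius samples was measured on Affymetrix mouse genome arrays. Per the labels' protocols, Trizol and RNeasy columns gave the RNA, of which 100 ng entered biotin labelling with the GeneChip IVT Express kit. The deposited values, read as log2 from their range, have nearly equal medians and were used as they stand. The sources used here do not give the summary method, software or log base. Of 45101 rows, 64 array controls were left out. Of the other 45037, 34945 had 1 gene in the platform annotation, 932 several and 9160 none, and 34741 of the first kind were matched by gene identifier to a RefSeq gene table (GRCm38.p6).

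The comparison of genotypes used lmFit and eBayes from limma 3.58.1 under R 4.3.3, with no trend. Calls were made at 0.05 after Benjamini-Hochberg adjustment over probe sets and again over 18193 genes, each by its brightest probe set. Group assignment follows the sample titles. Co-variation used permutation tests with 100000 resamples, two-sided. The limma and correlation steps were tested on simulated data. Every member and each of its probe sets is named. Of the other lists, probe sets past the threshold are named, otherwise up to 2 with the smallest p. The most alike genes are the 6 with the highest r. Members and lists were chosen with earlier results of these data known. Alternatives covered normalization, variance moderation, array weights, filters, the probe set per gene, a replicate block, each array left out, and arrays with genes of other tissues left out. Added after seeing the data were the fit without 5 such arrays, the brightest ordinary probe set per gene, the pair of Vegfa and Ppargc1a, the mean of members without Vegfa, and co-variation without 3 arrays. The number of arrays limits the precision. Figures and tables used Python 3.11.15, pandas 2.3.3, numpy 2.4.6, scipy 1.17.1 and matplotlib 3.10.9.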

Additional observations from a re-analysis of the deposited data

Results flagged for a closer look

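In the Skn-1 deficient group, Esam had 1 array far from the others. Replicate 2 stood at 9.06 on the log2 scale, and its gap to the next Skn-1 deficient array was 0.718 of the range of that group, which is more than Dixon's test allows at 95%. It was the only one among 20 groups of member probe sets examined this way, a rate near the 1 in 20 that chance gives.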

How the results depend on the processing

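The count of called endothelial probe sets and genes stayed at 0 under every alternative with an adjusted p, and the replicate block changed no call of a member (0 probe sets and 0 genes), while over the whole array it left 5 called probe sets against 86 without it. Over all alternatives the whole array had 0 to 144 called probe sets and 0 to 12 called genes, against 86 and 5. Deviations of same-numbered arrays correlated between -0.40 and 0.322. With no differently numbered arrays to set these against, they do not decide whether the replicate numbers pair the samples. The call of Jam2 1419288_at was lost with the replicate block (log2 difference 1.29, limma adjusted p = 0.198). The exact permutation test without adjustment counted 1 ordinary member, Emcn. Of 210 differences of the 10 ordinary member probe sets under the alternatives, 199 kept their direction and 11 turned, all in Flt1 and Esam. These counts include alternatives that could not turn a difference, because variance moderation, the replicate block and the filters leave the estimate as it was. They also count the fit without the same 3 arrays again, under another rule. Flt1 1419300_at was -0.0682 without the 3 arrays with genes of other tissues, under either way of choosing them, and -0.0537 without 5. Flt1 1451756_at and 1440926_at were 0.0369 and 0.0440 without those 5. With each array left out, Flt1 1419300_at ran from -0.0232 to 0.11, 1451756_at from -0.0964 to 0.0276, 1440926_at from -0.124 to 0.0175 and Esam from -0.083 to 0.0111. Pairs past the adjusted threshold numbered 0 to 2 with each array left out. The Emcn difference stayed between -0.30 and -0.16 (limma adjusted p 0.304 to 1) and its groups still did not overlap after quantile normalization or median centring, by gaps of 0.00548 and 0.00438. That of Vegfa ran from 0.11 to 0.32. With 5 arrays a group, and low-variation probe sets alone for Pecam1 and Tek, small differences were not detectable.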
